A study of Xenopus tropicalis with 44 samples.

Results

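The 8 genes described here encode transcription factors of the neural plate and forebrain: irx1, irx2, irx3, lhx5, six3, foxb1, sox2 and rax. They were taken by name from a count table of 28778 genes of the western clawed frog Xenopus tropicalis, and all 8 were found in it. All 8 were also among the 16064 genes with enough counts to be tested, each already through its reads in wild-type embryos of stage 13. For rax, with few reads in every other group, this was the only route.

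In vertebrate embryos the ectoderm gives rise to the neural plate where BMP signals are held low, and the plate is then patterned from front to back. SoxB1 factors such as Sox2 mark neural progenitors, Iroquois homeodomain factors (Irx1, Irx2, Irx3) divide the plate into territories and prepare neurogenesis, and Six3, Rax and Lhx5 act in the forebrain and eye field. Foxb1 is a forkhead factor of the early neural plate. These genes are known as products of zygotic transcription, which in frogs begins at low level during late cleavage and broadens at the mid-blastula transition.

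Messenger RNA was sequenced from whole embryos in 44 libraries, 2 for each of 22 groups, in a study that names maternal E2f1 and Otx1 as factors of the earliest zygotic transcription. E2F1 MO embryos were injected with a morpholino (an antisense oligomer that blocks translation or splicing of its target) against E2F1 and collected at stages 3 to 8. E2F1 rescue embryos received E2F1 mRNA together with that morpholino, and stages 6, 7 and 8 were sampled. Stages 7 and 8 were also sampled after injection of a morpholino against OTX1 (OTX1 MO) or of both morpholinos (double MO). Wild-type (WT) embryos received no treatment and covered stages 3 to 10 and stage 13. The labels list no group with a control morpholino and leave unsaid whether replicate libraries stem from different clutches, so that p-values here reflect a spread that may be technical. In whole-embryo RNA, fewer cells of a type and less RNA per cell cannot be told apart.

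Libraries held 9266510 to 37174300 counts (median 20541700), so that 3 reads correspond to 0.0706 to 0.329 CPM (counts relative to the TMM-scaled library size). e2f1 itself stood at 23117 to 35359 CPM in the E2F1 rescue libraries of stages 6 to 8, against 349 to 499 CPM in all other libraries of those stages. otx1 stood at 135 to 209 CPM in the injected libraries of stages 7 and 8, against 101 to 111 CPM in WT libraries of those stages; a morpholino need not lower the RNA it targets, so these levels do not check the MO labels. Across the tested genes, the E2F1 MO groups of stages 3 to 6 were each most like WT of the same stage (Pearson r of group means 0.998 each). E2F1 MO embryos of stage 7 were most like WT stage 7 (r = 0.980), with WT stage 8 next (r = 0.974). E2F1 MO, OTX1 MO and double MO embryos of stage 8 were each most like WT stage 7 (r = 0.983, 0.978 and 0.979), and E2F1 rescue embryos of stages 7 and 8 were most like WT stage 6 (r = 0.993 and 0.991).

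During cleavage the 8 RNAs were nearly undetected. Over the 18 libraries of stages 3 to 6, foxb1 had no read in any, irx3 and lhx5 had 2 reads each, irx1 had 5, irx2 had 11 and six3 had 13. rax had 27 and sox2 had 46, never more than 6 in 1 library. The highest single level of any member at these stages was 0.369 CPM, for sox2. No member was called between adjacent WT stages up to stage 7 (edgeR quasi-likelihood test, Benjamini-Hochberg adjusted p under 0.05, here and below), where 8.78% of all tested genes were called in the step to stage 4, 27.3% in that to stage 5, 11.1% in that to stage 6 and 46.9% in that to stage 7. At an unadjusted p under 0.05, irx2 alone passed in the step to stage 4 and no member in the other steps, and DESeq2 called 1 member in the step to stage 7 and none before. With 1 library left out the genes called were 464 to 767 in the step to stage 4 (1411 as reported), 2901 to 3491 in that to stage 5 (4380) and 720 to 1057 in that to stage 6 (1786). With so few reads, the lack of a call does not show that the members were unchanged in these steps.

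RNAs of 7 members appeared in WT embryos at stage 8, with the Iroquois gene irx1 and the SoxB1 gene sox2 first in amount. Of the 8 members, 7 rose between stages 7 and 8, none fell, and rax was not called; of all tested genes 44.1% were called and 21.1% rose. The median log2 change of the 8 was 5.98, and 4.47 with genes at 0 reads set at their bound, against 0.00 over all tested genes.

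irx1, an Iroquois gene of the early neural plate, had 10.6 and 9.08 CPM at WT stage 8, against 0 and 0.0291 CPM at WT stage 7. Both stage 8 libraries stood far above both stage 7 libraries, which held 1 read in all, a ratio of 679 with a 95% counting interval of 121 to 26892 (adjusted p = 9.9e-19). sox2 had 8.04 and 8.41 CPM at stage 8, against 0.410 and 0.175 CPM at stage 7, a log2 change of 4.79 ± 0.40 (SE; adjusted p = 1.2e-10). lhx5, a LIM homeodomain factor of the forebrain, had 3.58 and 2.90 CPM at stage 8, against no reads at stage 7, and was at least 74.6-fold higher (adjusted p = 1.5e-13, floor of 3 reads over the group). For these genes the libraries of the stages did not overlap.

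The remaining members appeared at low level. irx2 reached 1.38 ± 0.323 CPM (mean ± SD, n = 2, here and below) at stage 8, a ratio of 95.6 to stage 7 with a counting interval of 16.4 to 3852. six3, a homeodomain factor of the forebrain and eye, was at least 17.9-fold higher at stage 8, and irx3 at least 7.01-fold. foxb1 had 9 reads at stage 8, against 1 at stage 7, a ratio of 17.2 (2.39 to 754) with an adjusted p of 0.020. That call was lost without WT stage 7 replicate 1 (adjusted p = 0.12) or WT stage 8 replicate 2 (adjusted p = 0.32), and its adjusted p ran from 0.0021 to 0.32 over the alternatives.

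From stage 8 on the members took different courses. Between stages 8 and 9, lhx5 rose 21.1-fold to 69.6 and 68.1 CPM, against 3.58 and 2.90 CPM at stage 8 (log2 change 4.40 ± 0.16, adjusted p = 5.7e-20). irx2 rose by 3.19 ± 0.25, sox2 by 2.50 ± 0.21 and irx1 by 2.34 ± 0.16 on the log2 scale. foxb1 was called as well (2.02 ± 0.63, adjusted p = 0.020), but not without WT stage 8 replicate 1 (0.25), WT stage 9 replicate 1 (0.054) or WT stage 9 replicate 2 (0.13), with adjusted p from 0.0011 to 0.25 over its alternatives. In all 5 members rose and none fell, whereas 24.5% of all tested genes were called and 13.1% rose. six3 had 1.84 and 1.62 CPM at stage 9, against 0.467 and 1.15 CPM at stage 8 (adjusted p = 0.069), and was called under 4 alternatives, with adjusted p from 0.013 to 0.52. irx3 (adjusted p = 0.079) and rax were not called.

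At stage 10, when gastrulation begins, irx3 and foxb1 joined. irx3 had 70.0 and 60.1 CPM at stage 10, against 0.698 and 0.861 CPM at stage 9, an 82.2-fold rise (log2 change 6.36 ± 0.27, adjusted p = 1.1e-20). foxb1 had 37.0 and 32.3 CPM, against 0.952 and 1.11 CPM at stage 9 (log2 change 5.05 ± 0.33, adjusted p = 6.4e-13). The pair of anterior genes went apart in this step: lhx5 rose to 276 and 244 CPM at stage 10, whereas six3 fell to 0.499 and 0.439 CPM, against 1.84 and 1.62 CPM at stage 9 (log2 change -1.85 ± 0.57, adjusted p = 0.0046). Both WT libraries together held 11 reads of six3 at stage 10, against 61 at stage 9. In all 6 members rose, 1 fell and rax was not called, beside 63.2% of all tested genes called, 32.7% higher and 30.5% lower. With total counts alone, 39.6% of the genes called in this step were higher, against 51.7% with TMM factors.

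By stage 13, the early neurula, rax and six3 stood at high levels. rax, which specifies the eye field, had 145 and 154 CPM at stage 13, against 0.285 and 0.220 CPM at stage 10, a 565-fold rise (log2 change 9.14 ± 0.35, adjusted p = 5.7e-25). Its mean was 0.296 CPM or less in every other group. The rax test thus draws on the same stage 13 reads that admitted the gene to testing. six3 had 88.2 and 95.4 CPM at stage 13, against 0.499 and 0.439 CPM at stage 10, a 191-fold rise (log2 change 7.58 ± 0.40, adjusted p = 3.2e-19). Both genes thus showed most of their RNA at this stage, and the WT stage 13 libraries lay above all others of the series for both.

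lhx5 went the other way and fell to 62.4 and 65.3 CPM at stage 13, against 276 and 244 CPM at stage 10 (log2 change -2.02 ± 0.12, adjusted p = 7.5e-16). irx1, irx3 and foxb1 rose by 1.04 ± 0.14, 0.98 ± 0.17 and 1.18 ± 0.23. In all 5 members rose and 1 fell, beside 76.9% of all tested genes called, 40.6% higher and 36.3% lower. irx2 had 109 ± 1.68 CPM at stage 13, against 118 ± 8.69 CPM at stage 10, and sox2 had 301 ± 24.2 CPM at stage 13, against 261 ± 34.6 CPM at stage 10, where its libraries overlapped. Neither was called (adjusted p = 0.50 and 0.24), and the sign of both depended on the scaling: irx2 was called lower with total counts alone (adjusted p = 0.024, range over its alternatives 0.024 to 0.97), and sox2 higher with RLE factors (0.020) and with DESeq2 (0.0031, range 0.0031 to 0.66). Scaling by total counts moved the median gene by -0.28 in the step to stage 13, by -0.24 in that to stage 10 and by 0.14 in that to stage 7.

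**Figure D1:**
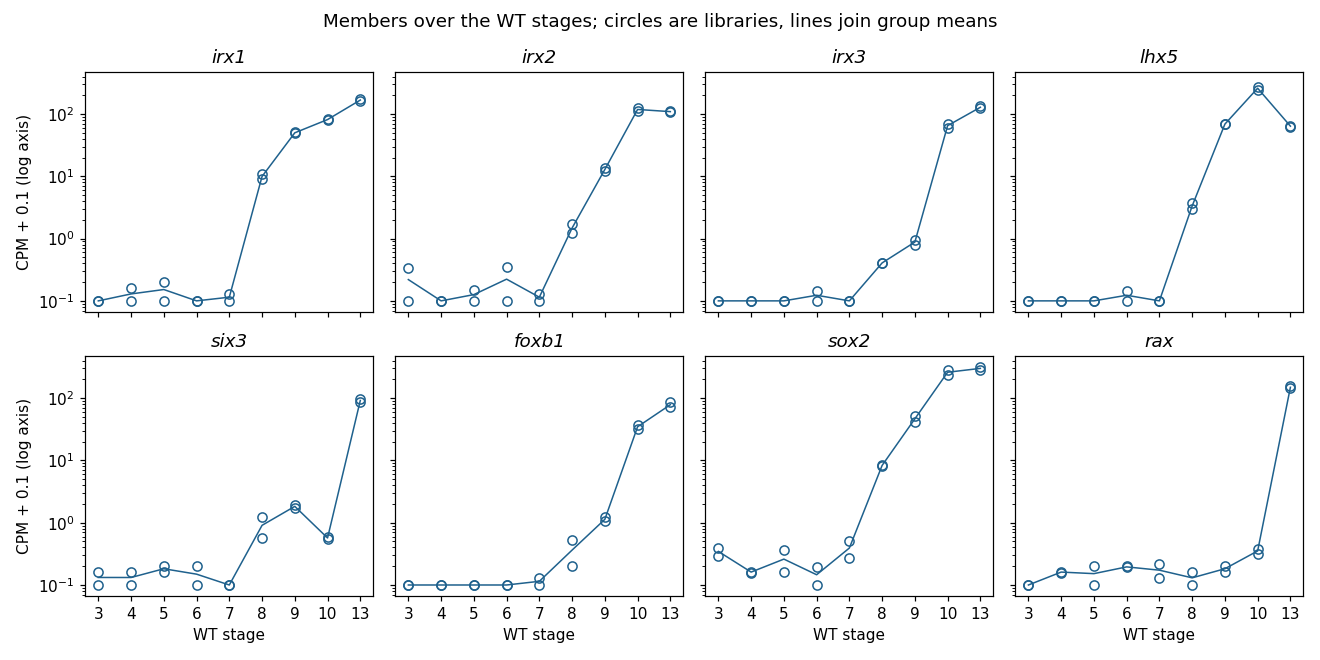
CPM + 0.1 (log axis) of each member in the WT stages, which are evenly spaced on the x axis; circles are libraries (n = 2 a stage) and lines join the group means. irx1, irx2, lhx5 and sox2 lie above 1 CPM from stage 8, irx3 and foxb1 climb to stage 10, lhx5 peaks at stage 10, and rax stays at 0.252 CPM or less on average until stage 13.

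The order of the members by amount changed along this course. On the TPM scale, which divides counts by the deposited gene length and is the scale for comparing genes, irx1 led at WT stage 8 with 14.8 ± 1.61 TPM and 43.2% of the members' summed TPM, followed by sox2 (11.5 ± 0.403 TPM) and lhx5 (4.29 ± 0.618 TPM). At stage 9 lhx5 led with 90.9 ± 1.75 TPM, ahead of irx1 (74.6 ± 2.05 TPM) and sox2 (65.0 ± 9.10 TPM). At stage 10 sox2 (276 ± 20.9 TPM) and lhx5 (259 ± 8.02 TPM) stood together, since their libraries overlapped.

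At stage 13 sox2 led with 257 ± 14.7 TPM and 28.4% of the sum. irx1 (153 ± 5.09 TPM), irx3 (129 ± 3.52), rax (103.04 ± 2.28) and irx2 (86.4 ± 0.665) followed, each above the next in both libraries. six3 (63.8 ± 2.08 TPM) and foxb1 (61.8 ± 6.36 TPM) overlapped, and lhx5 came last with 51.5 ± 0.483 TPM.

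**Figure D2:**
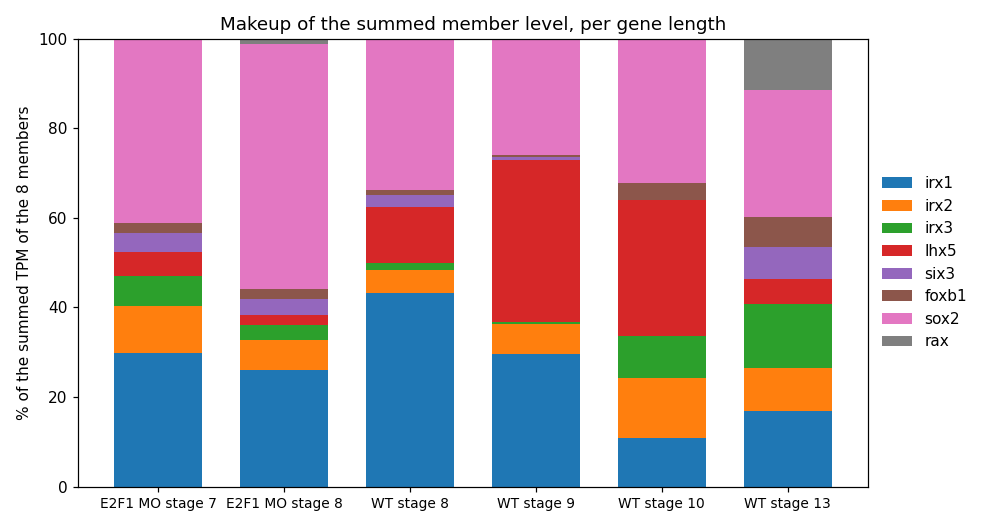
Share of each member in the summed TPM of the 8 (y axis, %), from group means, for E2F1 MO stages 7 and 8 and for WT stages 8, 9, 10 and 13. The lhx5 share is 36.1% at WT stage 9 and 5.68% at WT stage 13, and rax takes 11.4% at WT stage 13.

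Genes of each related list were counted beside the members. Of all tested genes 76.9% were called in the step to stage 13, 40.6% higher and 36.3% lower. From stage 10 to 13, all 14 tested genes of midbrain, hindbrain and posterior neural tissue rose, as did 13 of 14 proneural and neuronal genes and 12 of 19 further forebrain and eye field genes, while 2 of these 19 fell. Their median log2 changes were 4.14 (2.99 with genes at 0 reads at their bound), 2.60 and 3.74, against 0.08 over all tested genes. pax6, a master regulator of eye development, had 218 ± 9.82 CPM at stage 13, against 0.867 ± 0.0170 CPM at stage 10. Of 19 other pan-neural and early neural plate genes 7 rose and 6 fell, with ncam1, a neural cell adhesion molecule, at 99.1 ± 3.82 CPM at stage 13, against 1.52 ± 0.642 CPM at stage 10. RNAs of other tissues changed in the same interval, with 7 of 12 mesoderm markers higher and 4 lower, and 2 of 12 endoderm markers higher and 7 lower. The shares of the pan-neural and endoderm lists called in either direction did not exceed that of all tested genes, whereas the mesoderm share did.

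E2F1 MO embryos held RNA of 7 members at stage 7, when WT embryos had almost none. At stages 3 to 6 no member was called in E2F1 MO against WT, beside 7.54%, 3.11%, 3.24% and 1.95% of all tested genes; at an unadjusted p under 0.05, irx2 and rax passed at stage 3, irx2 at stage 6 and none at stages 4 and 5, and DESeq2 called none. The genes called there (1211, 500, 520 and 313) became 265 to 1237, 195 to 372, 255 to 282 and 160 to 202 with 1 library left out. No member had more than 6 reads in any of these libraries. Such few reads leave little room for a call, so the members are not shown to be unchanged at these stages. At stage 7, 7 of 8 members were higher in E2F1 MO embryos and none was lower, beside 47.3% of all tested genes called, 25.3% of all tested genes being higher. The median log2 change of the members was 7.32, and 4.77 with genes at 0 reads at their bound, against 0.00 over all tested genes.

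sox2 had 8.67 and 8.79 CPM in E2F1 MO embryos at stage 7, against 0.410 and 0.175 CPM in WT embryos (log2 change 4.88 ± 0.37, adjusted p = 1.6e-11). irx1 had 6.01 and 5.86 CPM in E2F1 MO embryos, against 0 and 0.0291 CPM in WT embryos, a ratio of 407 with a counting interval of 72.6 to 16115 (adjusted p = 6.1e-17). irx2 had 2.80 and 2.04 CPM in E2F1 MO embryos, against 0 and 0.0291 CPM in WT embryos, a ratio of 167 (29.6 to 6648). In each case both E2F1 MO libraries stood above both WT libraries.

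lhx5 had 1.03 and 1.38 CPM and irx3 had 1.15 and 1.25 CPM in E2F1 MO embryos at stage 7, against no reads in WT embryos, at least 27.3-fold for each gene. six3 had 1.18 and 1.09 CPM in E2F1 MO embryos, against no reads in WT embryos, at least 25.9-fold. foxb1 had 34 reads in E2F1 MO embryos, against 1 read in WT embryos, a ratio of 36.2 (6.08 to 1472, adjusted p = 0.00021). The 7 calls held under every alternative run, leaving out each library included. rax had 2 reads in E2F1 MO embryos, against 5 reads in WT embryos, and was not called (adjusted p = 0.46).

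Between stages 6 and 7 of the E2F1 MO group itself, 7 members rose, none fell and rax was not called, beside 54.2% of all tested genes called and 28.4% higher. Of the genes called in this step 52.5% were higher, or 64.4% with total counts alone. irx1 was at least 75.9-fold higher at stage 7, against no reads at stage 6, and sox2 rose by 5.18 ± 0.46 on the log2 scale. Summed over the 8 members, both E2F1 MO libraries held 21.2 CPM at stage 7, against 0.379 to 0.439 CPM in WT stage 7 libraries. WT embryos reached 23.5 to 24.7 CPM at stage 8. The makeup of that sum differed in its leading genes: sox2 led in E2F1 MO stage 7 embryos with 11.99 ± 0.0972 TPM (40.9% of the sum), ahead of irx1 with 8.73 ± 0.176 TPM, and lhx5 took 5.34% of it, against 12.5% at WT stage 8.

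The members were not alone in this, at a stage where 47.3% of all tested genes were called and 25.3% were higher. At stage 7, 10 of 11 organizer markers were higher in E2F1 MO than in WT embryos and none was lower, with summed levels of 29.5 to 30.3 CPM in E2F1 MO embryos, against 0.553 to 0.673 CPM in WT embryos. nodal3.1, a Nodal-related gene of the organizer, had 8.16 ± 0.135 CPM in E2F1 MO embryos, against 0.132 ± 0.145 CPM in WT embryos. Of the mesoderm markers 8 of 12 were higher and none lower, of the endoderm markers 7 of 12 were higher and 1 lower, and of the epidermis markers 7 of 11 were higher and 1 lower. eomes, a T-box factor of mesendoderm, had 7.84 ± 0.00592 CPM in E2F1 MO embryos, against 0.102 ± 0.0623 CPM in WT embryos.

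Within the nervous system lists the counts were uneven, beside 47.3% of all tested genes called and 25.3% higher. Of 19 other pan-neural and early neural plate genes 13 were higher in E2F1 MO embryos at stage 7 and 1 was lower, with sox11 at 126 ± 1.15 CPM in E2F1 MO embryos, against 59.6 ± 1.303 CPM in WT embryos. Of 19 other forebrain and eye field genes 5 were higher and none lower, of 14 posterior neural genes 4 were higher and 1 lower, and of 14 proneural and neuronal genes 3 were higher and 2 lower. Their median log2 changes, with genes at 0 reads at their bound, were 1.08, 0.09, 0.05 and 0.00. The shares higher in the forebrain and eye field, posterior neural and proneural lists were near that of all tested genes. Of 13 tested neural border and preplacodal genes 6 were higher and 3 lower, with summed levels over the 14 listed of 80.3 to 83.1 CPM in E2F1 MO embryos, against 93.9 to 95.7 CPM in WT embryos, a sum that ran against the direction of the members. eya1, a placode co-factor in that list, had 16.5 ± 0.00959 CPM in E2F1 MO embryos, against 26.6 ± 1.93 CPM in WT embryos (adjusted p = 7.7e-07). Maternal egg markers were 4 higher and 1 lower of 10. How far these other tissues' RNAs move with the members for a shared reason was not tested.

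At stage 8 none of the 7 members called higher at stage 7 was still called higher in E2F1 MO than in WT embryos. irx1 had 4.73 and 4.68 CPM in E2F1 MO embryos, against 10.6 and 9.08 CPM in WT embryos (log2 change -1.07 ± 0.18, adjusted p = 6.1e-06). lhx5 had 0.376 and 0.496 CPM in E2F1 MO embryos, against 3.58 and 2.90 CPM in WT embryos (log2 change -2.89 ± 0.29, adjusted p = 7.2e-10). These were the 2 members called lower, and 1 was called higher, beside 49.8% of all tested genes called, 26.2% higher and 23.7% lower.

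sox2 had 10.8 and 10.4 CPM in E2F1 MO embryos at stage 8, against 8.04 and 8.41 CPM in WT embryos, without overlap but with an adjusted p of 0.18. It was called without the filter on low counts (0.016) and with only the compared groups in the fit (0.0055), with adjusted p from 0.0055 to 0.40 over its alternatives. rax was the member called higher, with 19 reads in E2F1 MO embryos, against 1 read in WT embryos, a ratio of 10.6 (1.69 to 441, adjusted p = 0.013). That call was lost without WT stage 8 replicate 1 (adjusted p = 0.16) or E2F1 MO stage 8 replicate 2 (0.12), with adjusted p from 0.0056 to 0.16 over its alternatives. irx2, irx3, six3 and foxb1 were not called. In that order their means were 1.42, 0.561, 0.857 and 0.451 CPM in E2F1 MO embryos. WT embryos had 1.38, 0.307, 0.808 and 0.264 CPM. The libraries of E2F1 MO and WT embryos overlapped for irx2, six3 and foxb1, but not for irx3. The log2 change of irx2 ran from -0.18 to 0.30 over its alternatives, so its sign was not stable.

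The difference between the E2F1 MO effects at stages 8 and 7, which also contains the change of WT embryos between these stages, was itself tested. It was negative for 7 members and positive for rax, beside 39% of all tested genes called, 19.3% downward and 19.7% upward. For foxb1 it was lost without WT stage 7 replicate 1 (adjusted p = 0.12), WT stage 8 replicate 2 (0.305), E2F1 MO stage 7 replicate 2 (0.072) or E2F1 MO stage 8 replicate 1 (0.056), with adjusted p from 0.0031 to 0.305 over its alternatives. For rax it was lost without WT stage 7 replicate 2 (0.38), WT stage 8 replicate 1 (0.15), E2F1 MO stage 7 replicate 1 (0.14) or E2F1 MO stage 8 replicate 2 (0.11), with adjusted p from 0.015 to 0.38. Within the E2F1 MO group, lhx5 fell by 1.45 ± 0.32, irx3 by 1.09 ± 0.35 and irx2 by 0.78 ± 0.26 on the log2 scale at stage 8 against stage 7, and rax rose (adjusted p = 0.0058), beside 30.4% of all tested genes called, 14% higher and 16.4% lower. Of these 4 calls those of irx3, irx2 and rax were lost without single libraries of the E2F1 MO group, for irx3 without stage 7 replicate 2 (0.078) or stage 8 replicate 1 (0.12), for irx2 without stage 7 replicate 1 (0.27) or either stage 8 replicate (0.14 and 0.054), and for rax without stage 7 replicate 1 (0.12) or stage 8 replicate 2 (0.13). Over their alternatives the adjusted p ran from 0.0032 to 0.12 for irx3, from 0.0024 to 0.27 for irx2 and from 0.0013 to 0.13 for rax.

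**Figure D3:**
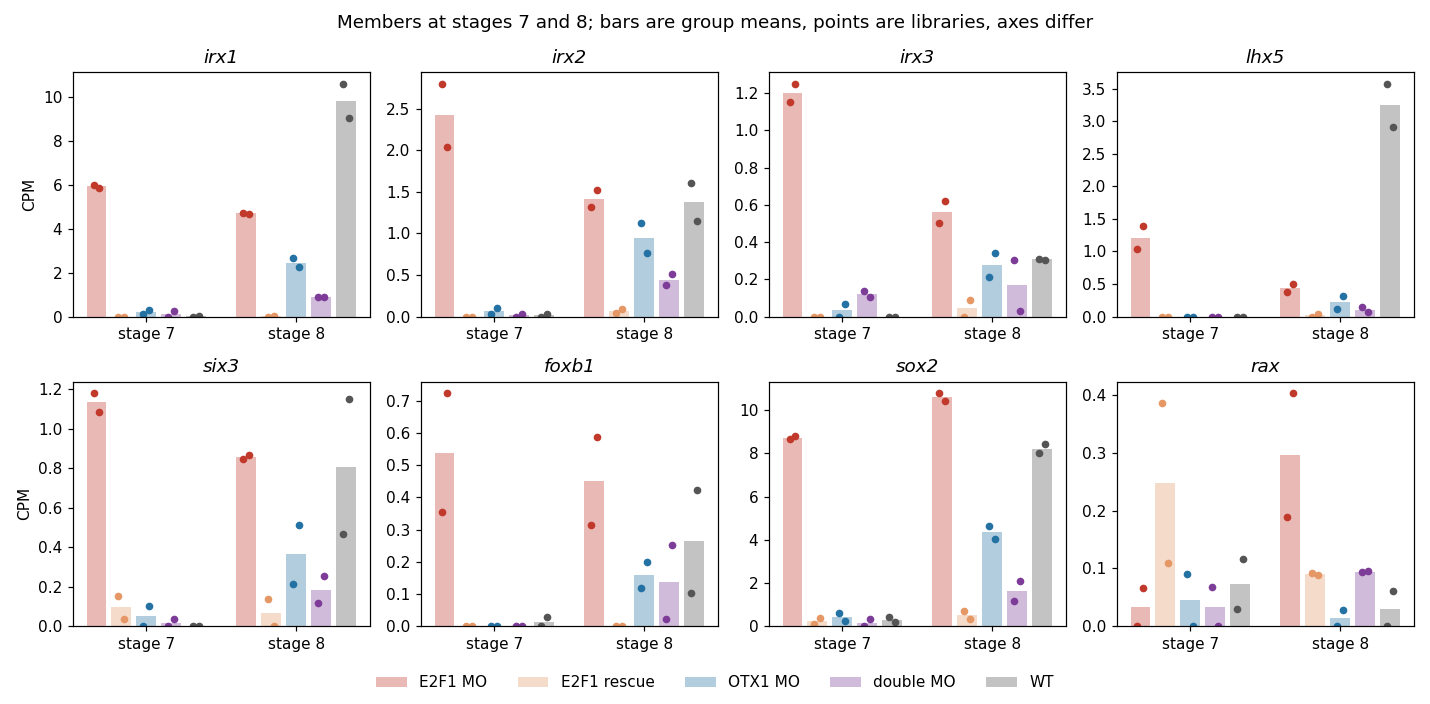
CPM of each member at stages 7 and 8 in E2F1 MO, E2F1 rescue, OTX1 MO, double MO and WT embryos; bars are group means, points are the 2 libraries, and each panel has its own y axis from 0. At stage 7 the E2F1 MO bars are highest for every member but rax, and at stage 8 E2F1 rescue embryos hold 0.499 CPM of sox2 on average, against 8.22 CPM in WT embryos.

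In E2F1 rescue embryos the members' RNAs were absent or nearly so at every stage collected. Against WT no member was called at stages 6 and 7, beside 3% and 33.3% of all tested genes; at an unadjusted p under 0.05, irx2 passed at stage 6 and six3 and rax at stage 7, and DESeq2 called 1 member at stage 7 and none at stage 6. Both groups held few reads of the members at stages 6 and 7, so the lack of a call there does not show equal levels. At stage 8, 7 members were lower in E2F1 rescue embryos than in WT embryos and none was higher, beside 52.1% of all tested genes called, 25.1% of all tested genes being lower. Replicates differed most in the E2F1 rescue group of stage 8, with a chi-square per gene of 31.0, against a median of 3.34 over the groups.

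sox2 had 0.687 and 0.311 CPM in E2F1 rescue embryos at stage 8, against 8.04 and 8.41 CPM in WT embryos (log2 change -4.03 ± 0.40, adjusted p = 2.8e-09). irx1 had 1 read in the E2F1 rescue libraries, against 355 reads in WT libraries, which were 439-fold higher (78.3 to 17399). lhx5 had 1 read in E2F1 rescue libraries, against 117 reads in WT libraries, which were 145-fold higher (25.5 to 5767). No E2F1 rescue library reached the lowest WT library for any of these genes.

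foxb1 had no reads in E2F1 rescue embryos at stage 8, against 9 reads in WT embryos, at least 3.71-fold lower. irx2, irx3 and six3 had 3, 2 and 3 reads in E2F1 rescue embryos, against 50, 11 and 28 reads in WT embryos. The calls of irx3 and foxb1 (adjusted p = 0.025 and 0.013) depended on single libraries. irx3 was lost without WT stage 8 replicate 1 (0.086) or 2 (0.065) or E2F1 rescue stage 8 replicate 1 (0.19), with adjusted p from 0.012 to 0.19 over its alternatives. foxb1 was lost without WT stage 8 replicate 2 (0.15) or E2F1 rescue stage 8 replicate 1 (0.063) or 2 (0.057), with adjusted p from 0.0011 to 0.15. With only the compared groups in the fit, irx3, six3 and foxb1 were under the filter on low counts and had no test, and the other 4 members were called, all lower.

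Set against E2F1 MO embryos, which share the morpholino, no member was called in E2F1 rescue embryos at stage 6, beside 0.131% of all tested genes; rax passed at an unadjusted p under 0.05, and DESeq2 called none. At stage 7, 7 members were lower and 1 was higher in rescue than in E2F1 MO embryos, beside 43.4% of all tested genes called, 23.3% lower and 20.1% higher. sox2 had 0.116 and 0.400 CPM in E2F1 rescue embryos, against 8.67 and 8.79 CPM in E2F1 MO embryos (log2 change -5.03 ± 0.41, adjusted p = 7.9e-11). irx1 had no reads in E2F1 rescue embryos, against 382 reads in E2F1 MO embryos, at least 106-fold lower.

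The higher member was rax, with 13 reads in E2F1 rescue embryos, against 2 reads in E2F1 MO embryos, a ratio of 7.82 (1.77 to 71.4, adjusted p = 0.014). It was lost without E2F1 MO stage 7 replicate 1 (0.17) or E2F1 rescue stage 7 replicate 1 (0.36), with adjusted p from 0.0043 to 0.36 over its alternatives. At stage 8, 7 members were again lower in E2F1 rescue than in E2F1 MO embryos, none was higher and rax was not called (adjusted p = 0.087), beside 39.9% of all tested genes called and 19.9% lower. Between stages 7 and 8 of the rescue group itself no member was called, beside 10.9% of all tested genes (1752, but 380 to 3369 with 1 library left out, the extremes being without stage 8 replicate 1 and 2, and 0 with only the compared groups); none passed at an unadjusted p under 0.05, and DESeq2 called none.

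Other lists moved in E2F1 rescue embryos too, beside 52.1% of all tested genes called and 25.1% lower at stage 8. At stage 8, 9 of 11 organizer markers were lower than in WT embryos, with summed levels of 2.71 to 4.49 CPM in E2F1 rescue embryos, against 37.5 to 38.1 CPM in WT embryos. Of the epidermis markers 6 of 11 were lower and 1 higher, of the mesoderm markers 6 of 12 were lower and of the endoderm markers 5 of 12 were lower and 1 higher. grhl3 and tfap2a, transcription factors of the epidermis, had no reads in E2F1 rescue embryos, against 281 and 193 reads in WT embryos. Of 10 maternal egg markers 6 were higher and 3 lower, with sox7 at 167 ± 9.05 CPM in E2F1 rescue embryos, against 57.9 ± 4.70 CPM in WT embryos. The part of stage, as measured by the likeness of these libraries to WT stage 6, in the members' low levels was not tested.

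**Figure D4:**
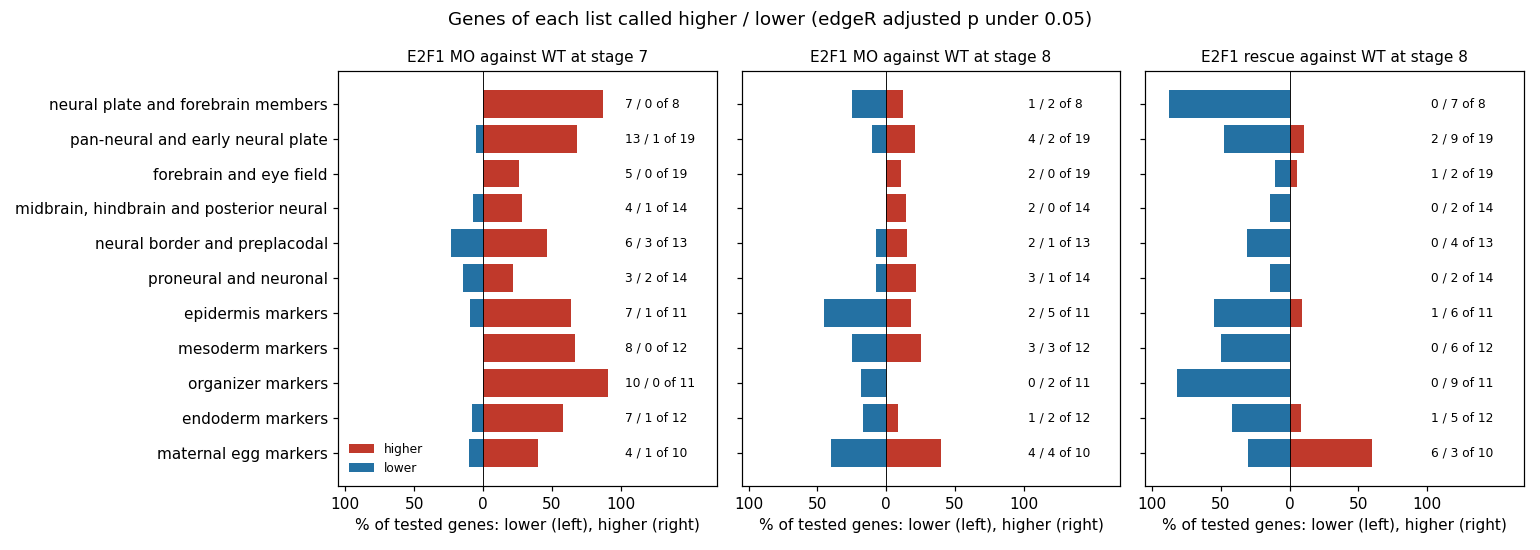
Share of tested genes of each list called higher (right, red) or lower (left, blue) in E2F1 MO against WT at stages 7 and 8 and in E2F1 rescue against WT at stage 8; the text beside each bar gives the numbers higher / lower of those tested. Organizer markers, at 10 of 11 higher and 9 of 11 lower in the outer panels, changed beside the neural plate and forebrain members.

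OTX1 MO embryos had little RNA of the members at stage 7 and less than WT embryos at stage 8 for 3 members. At stage 7 irx1 was the member called, higher in OTX1 MO embryos with 13 reads, against 1 read in WT embryos, a ratio of 14.4 (2.16 to 610, adjusted p = 0.0060), beside 49.2% of all tested genes called and 25.3% higher. That call was lost without WT stage 7 replicate 1 (0.072) or OTX1 MO stage 7 replicate 2 (0.11), with adjusted p from 0.0017 to 0.11 over its alternatives.

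At stage 8 irx1 had 2.65 and 2.25 CPM in OTX1 MO embryos, against 10.6 and 9.08 CPM in WT embryos, a level 4.01-fold lower in OTX1 MO embryos (SE 0.19 on the log2 scale, adjusted p = 4.0e-11). lhx5 had 0.119 and 0.313 CPM in OTX1 MO embryos, against 3.58 and 2.90 CPM in WT embryos (log2 change -3.94 ± 0.32, adjusted p = 5.0e-12). sox2 had 4.65 and 4.04 CPM in OTX1 MO embryos, against 8.04 and 8.41 CPM in WT embryos (log2 change -0.91 ± 0.24, adjusted p = 0.0023). For these 3 genes every OTX1 MO library lay below every WT library, no member was higher, and 54.5% of all tested genes were called, 26.4% of all tested being lower. irx2, irx3, six3, foxb1 and rax were not called.

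Against E2F1 MO embryos, OTX1 MO embryos were lower for 7 members at stage 7, with rax not called, beside 43.6% of all tested genes called and 23.5% lower. At stage 8 they were lower for 4 members, beside 42.4% called and 21.7% lower: irx1 by 0.94 ± 0.20 on the log2 scale, sox2 by 1.28 ± 0.22, six3 by 1.27 ± 0.46 and rax, with 1 read in OTX1 MO embryos, against 19 reads in E2F1 MO embryos. The six3 call (adjusted p = 0.025) was lost without E2F1 MO stage 8 replicate 1 (0.077) or 2 (0.088) or OTX1 MO stage 8 replicate 1 (0.29), with adjusted p from 0.0030 to 0.29 over its alternatives. DESeq2 called 7 members lower there. lhx5 had 0.216 ± 0.137 CPM in OTX1 MO embryos, against 0.436 ± 0.0846 CPM in E2F1 MO embryos, and was not called (adjusted p = 0.061). Within the OTX1 MO group itself, irx1, irx2, lhx5 and sox2 rose at stage 8 against stage 7, beside 3.06% of all tested genes called and 2.18% higher. That share rests on 491 genes, which became 175 to 241 with 1 library left out and 1637 with only the compared groups. Of the genes called there 71.3% were higher, or 92.4% with total counts alone. The lhx5 call (adjusted p = 0.012) was lost without either OTX1 MO stage 7 library or without OTX1 MO stage 8 replicate 2 (0.14 each), with adjusted p from 0.0022 to 0.14 over its alternatives.

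At stage 8 the summed level of the members was lowest, among the MO groups, with both morpholinos. Summed over the 8, double MO libraries held 3.08 to 4.18 CPM, OTX1 MO libraries 8.44 to 9.09 CPM and E2F1 MO libraries 19.1 to 19.6 CPM, against 23.5 to 24.7 CPM in WT libraries. None of these 4 ranges overlapped. rax went the other way, with 7 reads in double MO embryos, against 1 read in OTX1 MO embryos, and was not called between them. The E2F1 MO sum lay below that of WT through irx1 and lhx5, with means of 4.71 and 0.436 CPM, against 9.85 and 3.24 CPM in WT. The means of the other members were higher in E2F1 MO than in WT embryos, with overlapping libraries for irx2, six3 and foxb1. Against WT, 5 members were lower in double MO embryos and none was higher, beside 55.2% of all tested genes called and 27.2% lower.

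irx1 had 0.871 and 0.886 CPM in double MO embryos at stage 8, against 10.6 and 9.08 CPM in WT embryos (log2 change -3.48 ± 0.23, adjusted p = 1.7e-15). lhx5 had 0.141 and 0.0633 CPM in double MO embryos, against 3.58 and 2.90 CPM in WT embryos (log2 change -4.85 ± 0.36, adjusted p = 8.3e-13). sox2 had 1.15 and 2.09 CPM in double MO embryos, against 8.04 and 8.41 CPM in WT embryos (log2 change -2.39 ± 0.29, adjusted p = 6.0e-08). irx2 fell by 1.67 ± 0.39 and six3 by 2.12 ± 0.61 on the log2 scale. The six3 call (adjusted p = 0.0030) was lost without WT stage 8 replicate 2 (0.17) or double MO stage 8 replicate 1 (0.057), with adjusted p from 7.9e-05 to 0.17 over its alternatives.

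Against E2F1 MO embryos, all 8 members were lower in double MO embryos at stage 8, beside 43.2% of all tested genes called and 22.3% lower, with log2 changes from -2.76 ± 0.26 for sox2 to -1.55 ± 0.49 for irx3. The call of rax (adjusted p = 0.048) was lost with the replicate block (0.052) and without E2F1 MO stage 8 replicate 2 (0.45) or double MO stage 8 replicate 1 (0.17) or 2 (0.12), with adjusted p from 0.026 to 0.45. Those of irx3 and foxb1 (0.010 and 0.025) were lost without E2F1 MO stage 8 replicate 2 (0.081 and 0.25), irx3 also without double MO stage 8 replicate 2 (0.17) and foxb1 without double MO stage 8 replicate 1 (0.36), so that 5 to 8 members were called with 1 library left out. At stage 7, 7 members were lower in double MO than in E2F1 MO embryos and rax was not called, beside 44.7% of all tested genes called and 24.1% lower. sox2 had 0 and 0.317 CPM in double MO embryos at stage 7, against 8.67 and 8.79 CPM in E2F1 MO embryos (log2 change -5.76 ± 0.44, adjusted p = 2.0e-11).

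Against OTX1 MO embryos, irx1 was lower in double MO embryos at stage 8 by 1.48 ± 0.25 and sox2 by 1.47 ± 0.28 on the log2 scale (adjusted p = 0.00021 and 0.0021), beside 2.67% of all tested genes called and 1.41% lower (429 genes called, but 212 to 277 with 1 library left out and 967 with only the compared groups). The sox2 call was lost without OTX1 MO stage 8 replicate 1 (0.053) or double MO stage 8 replicate 1 (0.14), with adjusted p from 6.0e-14 to 0.14 over its alternatives. At stage 7 no member was called between these groups, beside 3.72% of all tested genes (597, but 165 without double MO stage 7 replicate 2, 1234 without its replicate 1 and 161 with only the compared groups); none passed at an unadjusted p under 0.05, and DESeq2 called none. Against WT at stage 7, irx3 was the member called in double MO embryos (at least 2.76-fold higher, adjusted p = 0.013), beside 50.3% of all tested genes called and 25.6% higher. It was lost without either WT stage 7 library (0.066 and 0.067), with adjusted p from 0.0051 to 0.067 over its alternatives. Within the double MO group, irx1, irx2 and sox2 rose at stage 8 against stage 7, beside 3.9% of all tested genes called and 1.91% higher. That share rests on 626 genes, which became 165 to 469 with 1 library left out and 36 with only the compared groups. Here 49.0% of the genes called were higher, or 70.1% with total counts alone. With only the compared groups in the fit none of these 3 was called (adjusted p = 0.15, 0.12 and 0.13), and irx2 was also lost without double MO stage 7 replicate 1 (0.068). Their adjusted p ran from 9.0e-07 to 0.15 for irx1, from 4.6e-05 to 0.12 for irx2 and from 5.1e-15 to 0.13 for sox2 over the alternatives.

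Whether the effect of both morpholinos was the sum of the single effects on the log2 scale was tested as an interaction. At stage 7 it was negative for irx1, irx2, irx3, six3 and sox2 and called for no member upward, beside 34.2% of all tested genes called and 18.3% negative, with sox2 at -6.32 ± 0.97 (adjusted p = 8.6e-06). The calls of irx2, irx3 and six3 were lost without OTX1 MO stage 7 replicate 2 (adjusted p = 0.066, 1 and 1), and that of irx3 also without either WT stage 7 library (0.075 and 0.073), so that 2 to 5 members were called with 1 library left out. Their adjusted p ran from 5.4e-06 to 0.066 for irx2, from 0.0064 to 1 for irx3 and from 0.00011 to 1 for six3. WT libraries of stage 7 held 1 read of irx1, 1 of irx2 and none of irx3 and six3, so the fitted size of these interactions depends on the prior count. For sox2 the libraries of stage 7 held 9 reads in double MO, 27 in OTX1 MO and 561 in E2F1 MO embryos, against 20 reads in WT embryos.

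At stage 8 the interaction was -1.84 ± 0.36 for sox2 (adjusted p = 0.00021) and 1.97 ± 0.77 for lhx5 (adjusted p = 0.044), beside 35.9% of all tested genes called, 19.4% negative and 16.6% positive. sox2 was thus lower in double MO embryos than the sum of the single effects gave. The lhx5 call was lost with only the compared groups (0.061) and without replicate 1 of WT (0.086), E2F1 MO (0.099), OTX1 MO (0.19) or double MO (0.56) at stage 8, with adjusted p from 0.013 to 0.56. The comparisons of a stage share their WT libraries, so their values are given side by side and no likeness between them is drawn.

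The changes of effect between stages were tested in the other injected groups as well. At stage 8 minus stage 7 the effect fell for 2 members in E2F1 rescue embryos (35.3% of all tested genes called, 15.4% negative), for 1 in OTX1 MO embryos (31.7%, 14.6% negative) and for 2 in double MO embryos (32.1%, 14.8% negative), and rose for none. In either direction these shares of the members did not exceed those of all tested genes. Each difference also contains the change of WT embryos from stage 7 to 8.

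In these groups too the organizer markers moved beside the members. At stage 8, 7 of 11 were lower in OTX1 MO and 10 of 11 in double MO embryos, each against WT, and none was higher. Their summed levels were 7.94 to 9.14 CPM in double MO embryos and 12.6 to 14.5 CPM in OTX1 MO embryos, against 37.5 to 38.1 CPM in WT embryos. Of all tested genes 54.5% were called in OTX1 MO and 55.2% in double MO embryos, 26.4% and 27.2% being lower. Epidermis markers were lower in 7 of 11 cases in OTX1 MO and 6 of 11 in double MO embryos, with 1 higher in each. Other pan-neural genes were lower in 7 of 19 cases in OTX1 MO and 8 of 19 in double MO embryos, with 2 higher in each. sall1, a zinc finger factor, had 7.18 ± 1.97 CPM in double MO and 6.28 ± 1.45 CPM in OTX1 MO embryos, against 44.8 ± 1.47 CPM in WT embryos. sox11 was higher, with 106 ± 4.57 CPM in double MO and 115 ± 1.77 CPM in OTX1 MO embryos, against 56.8 ± 5.64 CPM in WT embryos. The part of these other tissues' RNAs in the members' levels was not tested. At stage 8 E2F1 MO, OTX1 MO and double MO embryos were most like WT stage 7 (r = 0.983, 0.978 and 0.979). The part of stage in the members' levels was not tested in these groups either.

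**Figure D5:**
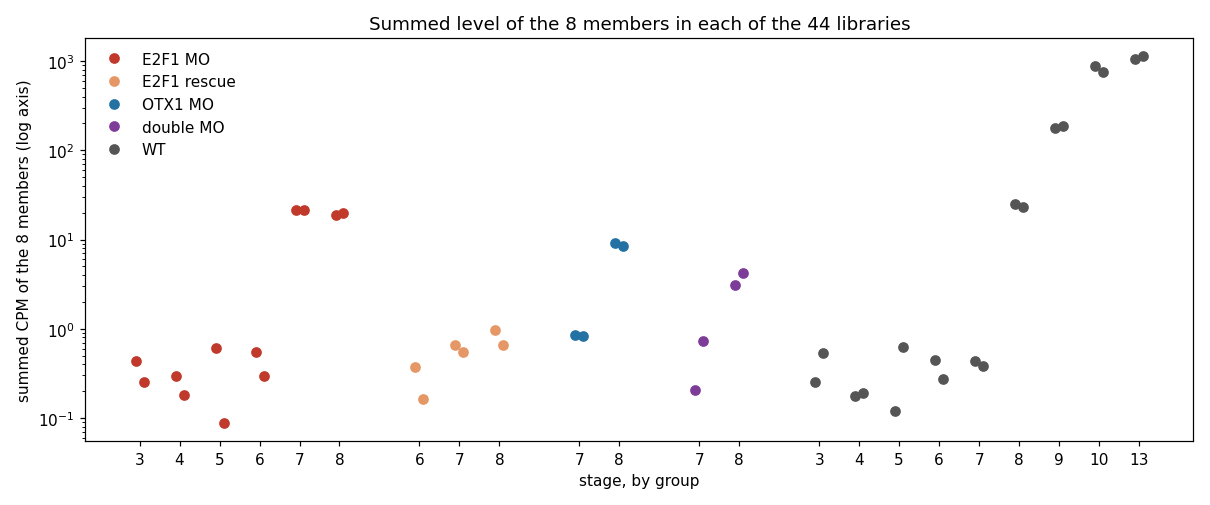
Summed CPM of the 8 members (log axis) in each of the 44 libraries, by group and stage; points are libraries. Only E2F1 MO embryos lie above 1 CPM at stage 7, and at stage 8 the order from low to high is E2F1 rescue (0.667 to 0.962 CPM), double MO, OTX1 MO, E2F1 MO and WT (23.5 to 24.7 CPM). The E2F1 MO sums lie below WT at stage 8 through irx1 and lhx5, while the means of the other members are higher in E2F1 MO.

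Across the 22 groups the members formed no single pattern. The log2 group means (pseudocount of 1 CPM) of irx3 and foxb1 had a Pearson r of 0.997 and those of irx1 and sox2 of 0.990, whereas lhx5 and rax had r = 0.481. six3 and rax had r = 0.956. These values are descriptions over 22 group means, most of them near 0 CPM. The highest mean was that of WT stage 10 for irx2 and lhx5 and that of WT stage 13 for the other members.

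Among 12383 other genes with at least 5 CPM in some group, those most like sox2 were LOC105947280 (r = 0.996), fgf20 (0.992) and LOC100493456 (0.990). irx1 was most like LOC116410370 (0.991), LOC105947280 (0.989) and dusp6 (0.987), and irx2 most like foxd4l1.1 (0.996), sox17a (0.995) and zic4 (0.995). irx3 was most like evx1 (0.995), foxc1 (0.994) and neurog3 (0.994), and foxb1 most like LOC116412215 (0.996), neurog3 (0.996) and mn1 (0.995). lhx5 was most like LOC105945991 (0.998), the organizer gene gsc (0.995) and adora2a (0.992). six3 was most like dmrta2 (0.992), egr2 (0.990) and mafb (0.985), and rax most like mmp11 (0.999), astl2d.2 (0.998) and myh2 (0.998). These neighbours depend on the measure. By Spearman rank correlation the first were tbx3 for foxb1 (1), foxi1 for irx1 (0.922), dkk1 for six3 (0.896) and flt1 for rax (0.768). Only gsc, for lhx5, was among the 3 nearest by both measures.

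The Iroquois genes lie in clusters, in which irx4 and irx5 had lower CPM than the members. The adjacent irx2 and irx1 had a Pearson r of 0.957 over the log2 group means. In the RefSeq annotation of the assembly UCB_Xtro_10.0, irx4, irx2 and irx1 follow each other on chromosome 6, and irx3 and irx5 lie on chromosome 4 with 2 genes between them. irx4 had 1.19 ± 0.0715 CPM and irx5 had 7.50 ± 0.0836 CPM at WT stage 13, against 109 ± 1.68 CPM for irx2 and 128 ± 6.45 CPM for irx3 in the same libraries. In no other group did the mean of irx4 exceed 0.245 CPM or that of irx5 0.0259 CPM, whereas irx2 averaged 2.42 CPM and irx3 1.2 CPM in E2F1 MO embryos at stage 7. These levels are per gene and not per length. six3 lies beside six2 on chromosome 5.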

How the data were processed

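RNA of whole embryos was measured in 44 libraries of 22 groups, 2 libraries each. The authors deposited 1 table of raw counts per gene, whole numbers and not normalized, with a gene length beside each. Total RNA was extracted and made into stranded mRNA libraries, per the labels' protocols. fastp, STAR 2.7.0e, featureCounts 2.0.1 and deepTools are named in the submitters' processing notes. Which build, annotation and strand option were used is not given in the sources used here. No coordinates are printed for that reason, and counts of overlapping or antisense genes are uncertain to that extent. Sequences were not used here.

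Columns were matched to samples by name. Replicates differed by more than sampling noise in each group (chi-square per gene 1.40 to 31.0; Pearson r 0.991 to 0.999), so none was treated as a copy. Libraries held 9266510 to 37174300 counts, and intervals and floors of 3 counts cover counting error only. edgeR 4.0.16 with limma 3.58.1 (R 4.3.3) was run with filterByExpr (minimum count of 10; 16064 genes kept, 12714 removed, at least 99.9% of counts kept), TMM factors of 0.771 to 1.16, a mean per group and a robust quasi-likelihood test with 22 residual degrees of freedom. Benjamini-Hochberg adjustment ran over all genes tested within each of 41 comparisons, with 0.05 as the threshold of a call. The fit was tested on simulated data for 1 comparison of E2F1 MO with WT embryos, with changes placed only in genes of higher counts. That test does not cover calls that rest on few reads. Where a member held few reads in both groups, the lack of a call says little about a change. Where a group had no reads a fold is a bound against 3 counts over the group, and where it had 1 to 3 reads the ratio has a 95% counting interval; fitted log2 changes of such genes depend on the prior count.

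The members and gene lists were chosen with earlier results of these data known. The 5 comparisons of adjacent stages within injected groups were added after seeing the data. Named were all 8 members, the 3 genes most like each by Pearson r, and, of the 2 called list genes of largest change with at least 5 CPM in the higher group, those the text has room for. Listed genes outside the table (zic1, gbx1, gbx2, irx6, lmx1b, krt8, krt18, krt5.7, mesp1, mesp2, chrd) were not analysed here. Alternatives were RLE factors, total counts alone, no filter, DESeq2 1.42.0, only the compared groups, a replicate block and leaving out each library; the last 2 kept the dispersion trend of the full fit. Same-numbered libraries showed little shared deviation (correlation of deviations -0.0676 to 0.155, 3 of 35 comparisons over 0.1), so no pairing by number was seen. Whether they share a clutch or batch cannot be told from these values.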

Additional observations from a re-analysis of the deposited data

Results flagged for a closer look

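The effect of the E2F1 morpholino on the members differed between stages 8 and 7 by a test of the difference itself (edgeR quasi-likelihood, adjusted over all tested genes). The log2 effect at stage 8 minus that at stage 7 was -10.67 for lhx5 (adjusted p = 7.9e-13), -9.28 for irx1 (6.5e-17), -7.58 for six3 (1.0e-05), -6.93 for irx3 (0.00010), -6.90 for irx2 (5.5e-09), -4.51 for sox2 (1.2e-08), -3.91 for foxb1 (0.025) and 4.27 for rax (0.037). The same difference was -7.62 for six3 (0.0029) and -3.88 for sox2 (0.0051) in E2F1 rescue embryos, -5.43 for irx1 in OTX1 MO embryos (6.0e-05), and -6.14 for irx1 (0.00016) and -5.23 for irx3 (0.015) in double MO embryos. Of all tested genes 35.3% were called in the rescue, 31.7% in the OTX1 MO and 32.1% in the double MO difference. The shares of the members called there did not exceed these. Each difference of effects also contains the change of WT embryos from stage 7 to 8, in which 7 members rose. In E2F1 rescue embryos six3 was lost without stage 7 replicate 1 (0.13) and sox2 without stage 7 replicate 2 (0.32), with adjusted p from 6.6e-05 to 0.13 and from 4.3e-09 to 0.32 over the alternatives. In double MO embryos irx1 was lost without stage 7 replicate 2 (0.98; range 1.7e-06 to 0.98) and irx3 without either WT stage 7 library (0.061 and 0.062; range 0.0011 to 0.062).

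The double MO effect differed from the sum of the single effects at stage 7 by -8.98 for irx1 (4.2e-08), -8.95 for six3 (0.0038), -8.55 for irx2 (0.00039), -6.32 for sox2 (8.6e-06) and -6.04 for irx3 (0.030). At stage 8 it differed by -1.84 for sox2 (0.00021) and 1.97 for lhx5 (0.044). WT libraries of stage 7 held 20 reads of sox2 and 0 to 5 of each other member, so the size of differences that use that stage depends on the prior count for members other than sox2.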

How the results depend on the processing

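Singly followed were 143 member results, all 133 called ones and a few uncalled ones. None changed sign of a call in 1493 alternative values, of which 71 fell below the threshold and 11 passed it. Other uncalled results were followed only through the counts of members called, so the 11 do not include every call gained. Of the called results 97 kept their call under every alternative. The other called results with no lost call, 5 in number, had no test with only the compared groups, where 17 called results in all were under the filter on low counts. The count of members called changed by more than 1.5 times under these settings. Without the filter it became 1 for WT stage 7 against 6 (0 as reported), 1 for rescue against WT at stage 7 (0), 2 for double MO against WT at stage 7 (1), 3 for the OTX1 MO effect at stage 8 minus 7 (1) and 7 for OTX1 MO stage 8 against 7 (4). With DESeq2 it became 1 for WT stage 7 against 6, 1 for rescue against WT at stage 7, 7 for OTX1 MO against E2F1 MO at stage 8 (4), 4 for the rescue effect at stage 8 minus 7 (2), 3 for the OTX1 MO and 4 for the double MO effect (2). With only the compared groups, partly through that filter, it became 4 for rescue against WT at stage 8 (7), 0 for OTX1 MO and 0 for double MO against WT at stage 7 (1 each), 1 for the interaction at stage 8 (2), 2 for the OTX1 MO effect, 1 for the double MO effect and 0 for double MO stage 8 against 7 (3). Otherwise the cause was not tested. Leaving out 1 library gave 0 to 1 members for WT stage 7 against 6, rescue against WT and OTX1 MO against WT at stage 7, 0 to 2 for double MO against WT at stage 7, 5 to 8 for double MO against E2F1 MO and 1 to 2 for double MO against OTX1 MO at stage 8, 2 to 5 and 1 to 3 for the interaction at stages 7 and 8, 1 to 2 for the rescue, OTX1 MO and double MO effects at stage 8 minus 7, and 2 to 3 for E2F1 MO stage 8 against 7 (4). The replicate block ended 1 reported call, rax in double MO against E2F1 MO at stage 8 (log2 change -1.59, adjusted p = 0.052). Over all genes, only the compared groups changed 13 of 41 counts by more than 1.5 times, such as 8148 for E2F1 MO stage 8 against 7 (4887 as reported), 8386 for rescue against WT at stage 7 (5354) and 3310 for rescue against E2F1 MO at stage 8 (6410), and rescue against E2F1 MO at stage 6 had 21 calls but 56 with total counts, 169 without the filter and 55 with DESeq2. With 1 library left out it had 1 to 18, rescue against WT at stage 6 had 236 to 333 (482) and rescue against E2F1 MO at stage 8 had 4070 to 6629. Both WT libraries together held 28 reads of irx3 and 37 of foxb1 at stage 9, and 11 of six3 and 6 of rax at stage 10. Counting error limits the precision of their values there.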
